A study of Mus musculus with 6 samples.

Results

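The 9 genes described here encode enzymes and receptors of prostaglandin signalling, and all 9 were found by symbol among the 17606 genes of the expression table. Cyclooxygenases were represented by Ptgs1 (Entrez 19224) and Ptgs2 (19225), terminal synthases by Ptgds (19215), Ptgis (19223) and Ptges (64292), receptors by Ptger2 (19217), Ptger4 (19219) and Ptgfr (19220), and breakdown by Hpgd (15446). They were read in bulk RNA-seq of corneal keratocytes, the mesenchymal cells of the corneal stroma, sorted from mice labelled as 10 weeks old. One group was labelled Prrx1-creERT;Ptch1, in which tamoxifen activates a Cre recombinase expressed from Prrx1 to delete floxed Ptch1, the receptor that keeps Hedgehog signalling off. The other was labelled ctrl, and its genotype was not given beyond age-matched control. Cells were taken 1 month after 3 doses of tamoxifen in both groups, and each group had 3 libraries, described by the study as biological replicates. The dosing schedule in the paper does not settle whether 10 weeks was the age at dosing or at collection. Prrx1-CreERT also recombines in corneal endothelium, so its deletion is not limited to keratocytes.

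Prostaglandins are lipid signals made on demand. Phospholipases release arachidonic acid from membranes, and the cyclooxygenases Ptgs1 (largely constitutive) and Ptgs2 (inducible by cytokines and growth signals) convert it to a common unstable intermediate. Terminal synthases turn this into prostaglandin D, prostaglandin E, prostacyclin or thromboxane, each with its own G protein-coupled receptors, and transporters with the dehydrogenase Hpgd clear the products. In the eye prostaglandins take part in inflammation and the control of eye pressure, and Ptgfr is the receptor of the drugs that lower it.

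Of the 9 genes, 8 passed the filter on low counts and 2 were called changed in Ptch1-ablated keratocytes. Ptgis, the prostacyclin synthase, fell by 2.46 ± 0.24 (SE) on the log2 scale, and Ptgfr, the prostaglandin F receptor, rose by 1.94 ± 0.54. Cyclooxygenase and prostaglandin E synthase transcripts were not called. A gene was called at an adjusted p of at most 0.05 (edgeR quasi-likelihood test, Benjamini-Hochberg over all genes tested) with a fold change of at least 2, and by this rule 763 of 13888 genes (5.49%) were called, 467 higher (3.36%) and 296 lower (2.13%). With libraries scaled by their totals alone that split was 632 higher and 234 lower, and the median log2 fold change of all genes moved from 0.005 to 0.17. The median over the 8 tested prostaglandin genes was 0.10, with 5 fitted higher and 3 lower, and p-values measure the spread between these libraries only.

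Library totals ran from 20258439 to 24788063 counts, of which the 9 genes took 0.0439% to 0.0554%. Counts per 1000000 counts of the scaled library (CPM) are used below to compare libraries, and TPM, the authors' value per transcript length, to compare genes. A count of 0 allows up to 3 counts for counting error only. By library this is 0.121 to 0.148 per 1000000 counts of the library before scaling. Gli1, a target of the pathway, was at 1, 20 and 36 counts in controls and at 3022, 3042 and 3098 in ablated libraries. Ptch1 itself was at 5.47 to 16.1 CPM in controls and 185 to 251 CPM in ablated libraries, and a gene-level count does not show which exons were deleted. Keratocyte markers were abundant in every library, at a summed 49911 to 51541 CPM in controls and 27573 to 34137 CPM in ablated libraries, and 4 of the 6 (Kera, Aldh1a1, Tkt and Cd34) were called lower. In bulk samples, fewer cells of a type and less RNA per cell cannot be told apart.

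Promoter sequences were available for 8 of the 9 genes in RefSeq (GRCm38.p6), all but Ptgis, and for all 6 of the other pathway genes called below. Windows from 250 bases before to 50 bases after the start were searched on both strands for a GLI motif (GACCACCCA), a CRE (TGACGTCA) and its core (TGACG), an E-box (CACGTG) and a TATA box (TATAAA). The 3 stretches below read 5′ to 3′ with matches in capitals: the promoter of Ptgfr as the receptor called higher, that of Slco2a1 as the prostaglandin transporter called higher, and the start of Ptgs2, where a pair of motifs overlap.
The Ptgfr promoter spans chr3:151837529-151837778 on the minus strand, the Slco2a1 promoter chr9:103008237-103008486 on the plus strand and the Ptgs2 stretch chr1:150100034-150100063 on the plus strand.
Ptgfr: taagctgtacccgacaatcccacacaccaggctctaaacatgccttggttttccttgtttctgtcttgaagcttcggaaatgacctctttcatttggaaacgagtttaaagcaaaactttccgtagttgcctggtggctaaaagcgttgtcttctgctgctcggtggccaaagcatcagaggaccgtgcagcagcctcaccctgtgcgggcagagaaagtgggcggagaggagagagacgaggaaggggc
Slco2a1: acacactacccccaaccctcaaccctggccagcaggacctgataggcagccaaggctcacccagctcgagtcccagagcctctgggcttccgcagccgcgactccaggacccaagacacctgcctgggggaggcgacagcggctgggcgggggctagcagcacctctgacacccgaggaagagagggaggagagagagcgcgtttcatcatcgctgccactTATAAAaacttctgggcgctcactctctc
Ptgs2: gtcaccactaCGTCACGTGgagtccgcttt

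The Ptgfr window held none of the 5 motifs. In Slco2a1 a TATA box lay at positions -29 to -24 from the start, and 14.2% of 27025 promoters held one in this window. In Ptgs2 a CRE core on the opposite strand (positions 14 to 18 after the start) overlapped an E-box (17 to 22). Positions are counted from the RefSeq start used for each gene, and other starts were not examined. Over all promoters, 21.0% held the core and 7.24% the E-box. The core was also found in Slco2b1 and Il1r1, and a TATA box in Hpgd. The GLI motif was in 0.244% of promoters and the full CRE in 1.88%, and neither lay in the windows of the 8 prostaglandin genes or the 6 called pathway genes. A match is a description of letters and not of binding.

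The plot of member levels by library shows the 9 genes on 2 tiers. In controls Ptgis stood at 99.6 ± 12.4 TPM (SD, n = 3), Ptgs2 at 94.7 ± 33.7 and Ptgs1 at 85.1 ± 12.2, and the ranges of these neighbours overlapped. Ptges at 58.3 ± 9.94 TPM lay below every control value of Ptgs1. Hpgd followed at 7.54 ± 3.27 TPM, then Ptger4 at 4.48 ± 1.61, Ptgfr at 2.06 ± 1.53, Ptger2 at 0.673 ± 0.713 and Ptgds at 0.363 ± 0.629, each overlapping the next. In ablated libraries the order was headed by Ptgs2 at 117 ± 31.6 TPM, followed by Ptges at 72.0 ± 12.2 and Ptgs1 at 69.1 ± 14.7, of which only the last pair overlapped. Ptgis now stood between the tiers at 20.8 ± 4.46 TPM, above every value of Hpgd (9.94 ± 1.89), Ptger4 (9.77 ± 3.12) and Ptgfr (9.18 ± 3.67), and these 3 overlapped each other.

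**Figure D1:**
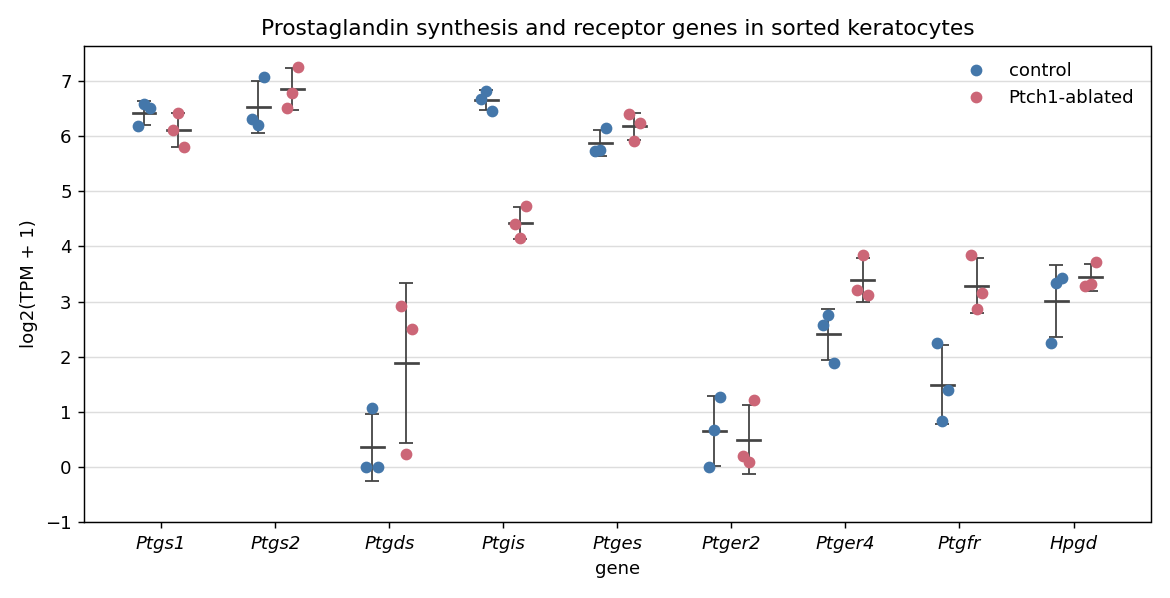
Level of each prostaglandin gene in each library as log2(TPM + 1) on the vertical axis, with blue points for the 3 control and red points for the 3 Ptch1-ablated libraries. Horizontal lines are group means and bars are ± SD (n = 3). Ptgis is lower in every ablated library, and Ptgfr and Ptger4 are higher in every ablated library, while the groups of Ptgs2 overlap.

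Ptgs1, the constitutive cyclooxygenase, measured 97.1, 126 and 115 CPM in control replicates 1, 2 and 3 and 78.9, 91.1 and 65.5 CPM in ablated replicates 1, 2 and 3. The groups did not overlap in CPM, although in TPM they did (71.4 to 94.6 against 55.0 to 84.3). The difference of -0.53 ± 0.18 on the log2 scale was not called (edgeR adjusted p = 0.11).

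Ptgs2, the inducible cyclooxygenase, was the more variable of the pair. It was at 168, 156 and 276 CPM in controls and at 167, 187 and 290 CPM in ablated libraries, so replicate 3 was the highest in both groups and the groups overlapped almost completely. The fitted difference was 0.10 ± 0.25 on the log2 scale (edgeR adjusted p = 0.88), and it was below 0 when control replicate 1, control replicate 2 or ablated replicate 3 was left out. Ptgs2 is itself induced by the signals that induce immediate early genes, the first transcripts made after stimulation or tissue handling. Of 18 such genes 4 were called higher in ablated cells (Fosb, Jun, Nr4a1 and Myc), beside 3.36% of all genes tested. By the adjusted p alone 10 passed, and all 18 were fitted higher. Egr1, which had the highest counts of them though not the highest TPM, was at 3563 to 3818 CPM in controls and 4502 to 5939 CPM in ablated libraries. Their summed level was 10779 to 12062 CPM in controls and 17967 to 19119 CPM in ablated libraries. Their part in the Ptgs2 values was not tested.

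The balance of the cyclooxygenases, log2 of Ptgs2 over Ptgs1 TPM within a library, was 0.13, -0.38 and 0.58 in controls and 0.41, 0.36 and 1.46 in ablated libraries. The means were 0.11 ± 0.48 and 0.74 ± 0.62 (SD, n = 3). With a difference of 0.64 and an exact permutation p of 0.3 (two-sided, where 3 against 3 cannot go below 0.1), the groups overlapped and no shift was detectable.

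Among the terminal synthases, Ptgis carried the clearest difference. It makes prostacyclin, a vasodilator that also inhibits platelets. Counts were 1779, 1697 and 1530 in controls and 329, 256 and 456 in ablated libraries, or 81.6, 89.2 and 66.9 CPM against 14.0, 10.9 and 18.3 CPM. The highest ablated library lay far below the lowest control. This was a 5.49-fold lower level (log2 fold change -2.46 ± 0.24, edgeR adjusted p = 4.40e-05), and the fitted value stayed between -2.67 and -2.22 and remained called under all 15 alternatives run for it. Ptgis, as the called gene of the 9 with both the highest TPM and the largest change, was compared with all tested genes across the 6 libraries. Rnaset2a, a ribonuclease gene (Pearson r = 0.998 of log2 CPM), 6430548M08Rik (0.997) and the tetraspanin Cd63 (0.996) had the most similar profile, and 308 genes had an r over 0.95, a likeness that the difference between the groups alone can give.

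Ptges, the inducible microsomal prostaglandin E synthase, measured 90.5, 91.6 and 116 CPM in controls and 124, 82.3 and 114 CPM in ablated libraries. Its groups overlapped, with both the highest and the lowest value in ablated libraries. The fitted difference was 0.10 ± 0.19 on the log2 scale (edgeR adjusted p = 0.84).

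Ptgds, the lipocalin-type prostaglandin D synthase, was close to the detection limit. It had 0, 6 and 0 counts in controls and 39, 1 and 30 counts in ablated libraries, so 2 of the 3 ablated libraries stood above all controls and the third did not. It failed the filter on low counts. With no filter its fitted log2 difference was 3.18 ± 1.99 (edgeR adjusted p = 0.43).

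The plot of synthase shares sets these transcripts beside the others that end the pathway: Hpgds (hematopoietic prostaglandin D synthase), Tbxas1 (thromboxane synthase), and Ptges2 and Ptges3 (other prostaglandin E synthases). Their TPM values in one library were summed and each gene was given as a percent of the sum. Ptgis held 36.7%, 35.7% and 32.3% in controls and 7.30%, 6.06% and 10.4% in ablated libraries. Ptges held 20.7 ± 4.78% in controls and 27.2 ± 5.09% in ablated libraries, with SD and n = 3, and Ptges3, whose product is also a chaperone partner, held 38.0 ± 2.27% and 55.4 ± 7.62%. As shares of one sum, those of the other genes must climb in total where that of Ptgis drops, but no single one must. The Ptges shares of the groups overlapped (17.0% to 26.1% in controls against 21.3% to 30.1% in ablated libraries). By the count fit Ptges3 differed by 0.23 ± 0.18 on the log2 scale (edgeR adjusted p = 0.54), Hpgds by 0.29 ± 0.44 (0.79), Ptges2 by 0.043 ± 0.84 (0.988) and Tbxas1 by 0.0023 ± 0.28 (0.998). Of the 7 synthases only Ptgis was called. The share of Ptgds was 0.117 ± 0.202% in controls and 1.45 ± 1.22% in ablated libraries with n = 3, a difference not detectable by an exact permutation test (two-sided p = 0.2, where 0.1 is the smallest possible).

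**Figure D2:**
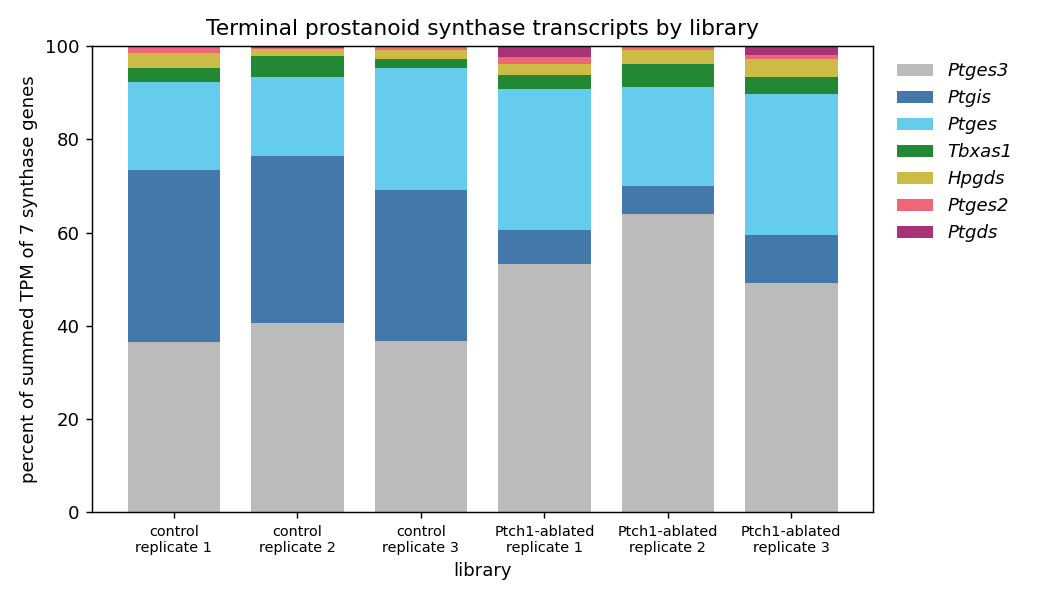
Stacked bars give, for each library on the horizontal axis, the percent of the summed TPM of 7 terminal synthase genes that each gene takes. Ptgis takes 32.3% to 36.7% in control libraries and 6.06% to 10.4% in Ptch1-ablated libraries.

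Of the receptors, Ptgfr was the one called. It signals through calcium in response to prostaglandin F. Counts were 174, 32 and 76 in controls and 573, 255 and 370 in ablated libraries, which is 7.98, 1.68 and 3.33 CPM against 24.4, 10.8 and 14.9 CPM. Every ablated library lay above every control, but control replicate 1 was close to ablated replicate 2. The level was 3.85-fold higher (log2 fold change 1.94 ± 0.54, edgeR adjusted p = 0.047). This call rested on each of several libraries: the adjusted p was 0.13 without control replicate 2, 0.12 without control replicate 3, 0.20 without ablated replicate 1, 0.061 without ablated replicate 2 and 0.11 without ablated replicate 3, and the fitted value ranged from 1.56 to 2.73.

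Ptger4, a prostaglandin E receptor that raises cyclic AMP, was at 7.80, 8.99 and 4.02 CPM in controls and 11.03, 16.8 and 10.6 CPM in ablated libraries. The groups did not overlap, yet the difference of 0.89 ± 0.40 on the log2 scale was not called (edgeR adjusted p = 0.24). In all, 4 of the 8 tested genes (Ptgs1, Ptgis, Ptger4 and Ptgfr) had CPM ranges that did not overlap, beside 27.4% of all genes tested.

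Ptger2, the other cyclic AMP-coupled prostaglandin E receptor, was barely detected. It had 0, 11 and 56 counts in controls and 5, 2 and 52 counts in ablated libraries, with replicate 3 high in both groups. The spread within a group exceeded the difference of -0.34 ± 1.57 on the log2 scale (edgeR adjusted p = 0.95).

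Hpgd, the dehydrogenase that inactivates prostaglandins, had 62, 131 and 161 counts in controls and 133, 129 and 202 in ablated libraries. Control replicate 1 was the low value and the other libraries overlapped. The difference was 0.20 ± 0.50 on the log2 scale (edgeR adjusted p = 0.89).

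Beyond the 9 genes, 84 others were listed for arachidonic acid release, terminal synthesis, reception, transport and breakdown, the leukotriene branch and the regulation of Ptgs2. Of these 78 were in the table and 65 were tested, and 6 were called, 5 higher and 1 lower. Over all genes tested 5.49% were called, 3.36% higher and 2.13% lower. Of the 65, 43 were fitted higher and 22 lower (median log2 fold change 0.11). The plot of fold changes shows the members above the main genes of these lists.

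**Figure D3:**
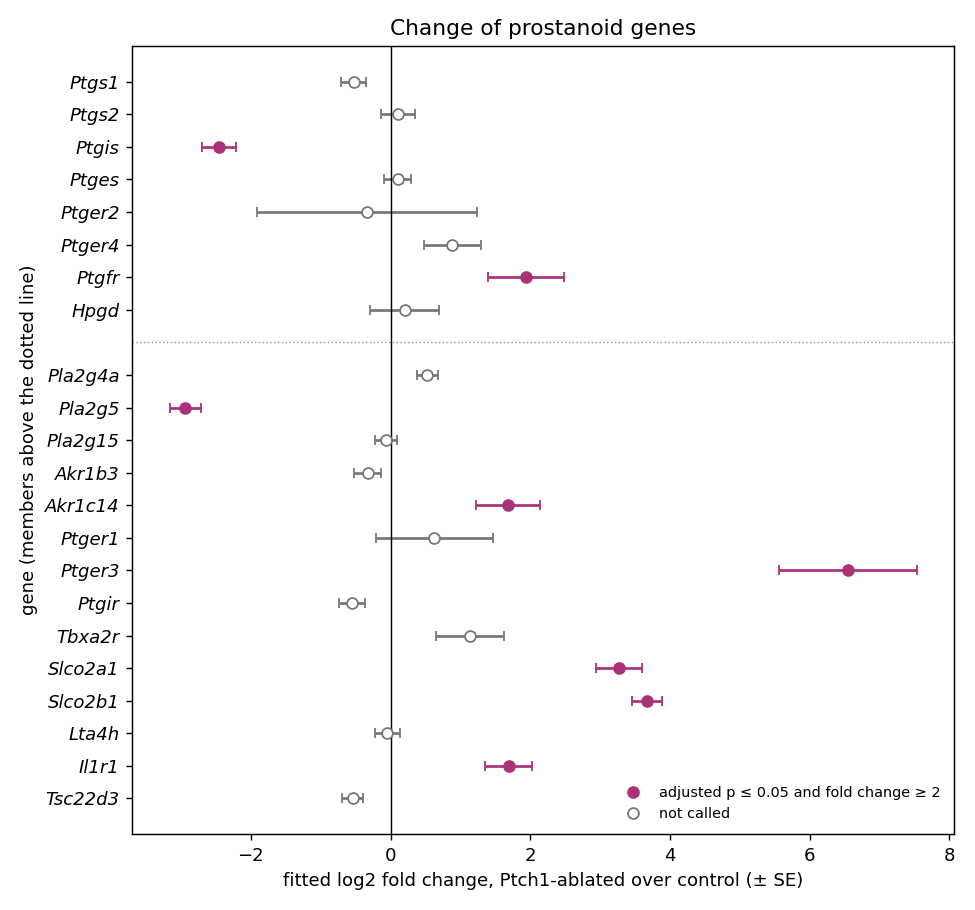
Fitted log2 fold change of Ptch1-ablated over control on the horizontal axis, with bars of ± SE, for the 8 tested prostaglandin genes above the dotted line and 14 other pathway genes below it. Filled points passed an adjusted p of at most 0.05 with a fold change of at least 2. Ptgis and Pla2g5 are the filled points below 0.

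Among 9 tested phospholipases A2, 1 was called, beside 5.49% of all genes tested. Pla2g5, a secreted phospholipase, was at 74.9, 73.3 and 70.5 CPM in controls and 7.71, 11.3 and 9.53 CPM in ablated libraries, a 7.66-fold lower level (log2 fold change -2.94 ± 0.22, edgeR adjusted p = 5.73e-06). The control libraries were within a few CPM of each other and well apart from the ablated ones. Pla2g15, a lysosomal phospholipase and the most abundant of the list, differed by -0.06 ± 0.16 on the log2 scale, and by 0.11 with library totals only. Pla2g4a, the cytosolic phospholipase that supplies the cyclooxygenases, was named after its values were seen. It was at 70.0, 74.8 and 69.3 CPM in controls and 99.8, 108 and 101 CPM in ablated libraries (0.53 ± 0.15 on the log2 scale, edgeR adjusted p = 0.055) and was not called.

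Among 11 tested synthases and reductases 1 was called, beside 5.49% of all genes tested. This was Akr1c14, an aldo-keto reductase of steroid and prostaglandin metabolism. It was at 6.14, 4.68 and 2.27 CPM in controls and 8.82, 19.1 and 14.2 CPM in ablated libraries (log2 fold change 1.69 ± 0.46, edgeR adjusted p = 0.043), with the lowest ablated value near the highest control. Left out in turn, control replicates 2 and 3 and ablated replicates 2 and 3 gave adjusted p of 0.11, 0.10, 0.18 and 0.13, so this call also rested on single libraries. Akr1b3, aldose reductase and the most abundant of the list, differed by -0.33 ± 0.19 and was not called. Akr1b8, another aldo-keto reductase named after its values were seen, was at 0, 20 and 7 counts in controls and 117, 156 and 117 in ablated libraries. Its groups stood apart but it was not called (3.59 ± 1.12 on the log2 scale, edgeR adjusted p = 0.075).

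Among 7 other tested receptors, 1 was called, beside 5.49% of all genes tested. Ptger3, a prostaglandin E receptor coupled to a fall in cyclic AMP, had 0, 9 and 0 counts in controls and 398, 368 and 254 in ablated libraries. It was thus scarcely found in controls and was present in every ablated library at 10.2 to 16.9 CPM. The fitted log2 fold change was 6.54 ± 0.99 (edgeR adjusted p = 0.0012), and its size depends on how counts of 0 are treated, with 3.95 to 11.4 over the alternatives. Ptgir, the receptor of the prostacyclin that Ptgis makes, was the most abundant of the list. It was at 92.2, 98.5 and 127 CPM in controls and 84.4, 65.1 and 68.0 CPM in ablated libraries, without overlap in CPM but with overlap in TPM (58.99 to 86.01 against 49.96 to 63.3), and the difference of -0.55 ± 0.18 was not called (edgeR adjusted p = 0.10). Tbxa2r, the thromboxane receptor, and Ptger1, a calcium-coupled prostaglandin E receptor, were named after their values were seen. Tbxa2r was at 2.06 to 7.57 CPM in controls and 8.93 to 11.97 CPM in ablated libraries (1.14 ± 0.49, edgeR adjusted p = 0.20), and Ptger1 at 0.841 to 6.74 and 1.57 to 14.7 CPM (0.63 ± 0.84, edgeR adjusted p = 0.75). Neither was called.

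The 4 receptor genes of prostaglandin E were all at low levels per transcript length in controls, from 0.29 ± 0.502 TPM for Ptger3 to 4.48 ± 1.61 TPM for Ptger4. In ablated libraries Ptger3 was at 18.5 ± 4.38 TPM, Ptger4 at 9.77 ± 3.12 and Ptger1 at 5.20 ± 5.60 TPM, while Ptger2 was at 0.507 ± 0.697 TPM (SD, n = 3). Ptgir exceeded all of them in both groups, at 69.4 ± 14.6 and 55.2 ± 7.14 TPM.

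Transport held a pair of large differences. Among 10 tested transport and breakdown genes 2 were called, both higher, beside 3.36% of all genes tested called higher. Slco2a1, the prostaglandin transporter that takes prostaglandins into cells for inactivation by Hpgd, was at 5.41, 14.0 and 7.13 CPM in controls and 91.0, 90.9 and 73.9 CPM in ablated libraries (9.67-fold, log2 fold change 3.27 ± 0.33, edgeR adjusted p = 4.91e-05). Slco2b1, a broader organic anion transporter and the most abundant of the list, was at 33.5, 58.6 and 40.4 CPM in controls and 648, 511 and 533 CPM in ablated libraries (12.8-fold, 3.68 ± 0.21, edgeR adjusted p = 6.78e-07). In both, the lowest ablated library was several times the highest control. Hpgd, the enzyme of the same clearance step, was not called, as given above.

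**Figure D4:**
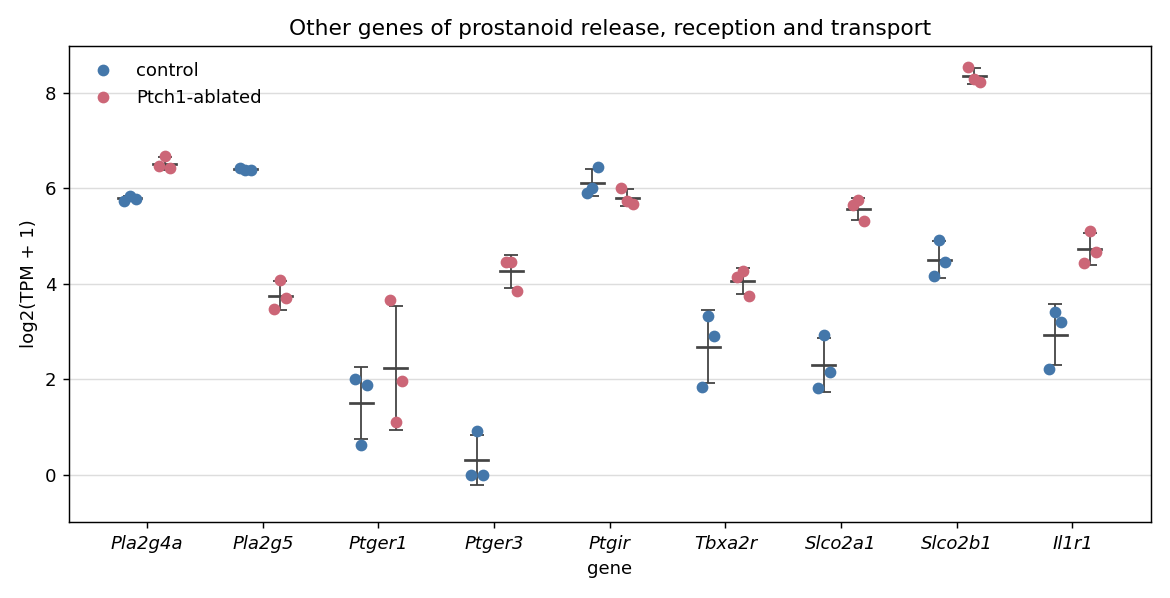
Level of 9 other prostanoid pathway genes in each library as log2(TPM + 1), with blue points for control and red points for Ptch1-ablated libraries, lines for group means and bars for ± SD (n = 3). Pla2g5 is lower, and Ptger3, Slco2a1, Slco2b1 and Il1r1 are higher, in every ablated library.

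Of the 10 tested genes of the leukotriene and lipoxygenase branch, which competes for arachidonic acid, edgeR called 0, and 0 passed the adjusted p alone. The unadjusted p was under 0.05 for 1 of them, and DESeq2 called 0. Lta4h, the leukotriene A hydrolase and the most abundant, differed by -0.05 ± 0.18 on the log2 scale, and by 0.12 with library totals only. Of 18 tested regulators of Ptgs2, 1 was called, close to the 5.49% of all genes tested. Il1r1, the interleukin-1 receptor, was at 8.12, 22.4 and 18.3 CPM in controls and 42.4, 63.8 and 51.5 CPM in ablated libraries (3.23-fold, log2 fold change 1.69 ± 0.34, edgeR adjusted p = 0.0080), without overlap. Tsc22d3, a glucocorticoid-induced gene and the most abundant of the list, fell by 0.54 ± 0.15 on the log2 scale (edgeR adjusted p = 0.043), under the fold minimum. Its adjusted p was 0.12 with library totals only, 0.14 and 0.15 with limma on TPM, and 0.063, 0.18, 0.072, 0.15 and 0.15 without control replicates 1, 2 and 3 and ablated replicates 2 and 3. Zfp36, which destabilizes the transcripts of inflammatory genes including Ptgs2, was named after its values were seen. It rose by 0.45 ± 0.12 on the log2 scale (edgeR adjusted p = 0.032), also under the fold minimum. Its adjusted p was 0.093 and 0.17 without control replicates 1 and 2, and 0.062, 0.084 and 0.084 without ablated replicates 1, 2 and 3.

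Markers of other cells that carry prostanoid genes were read in the same libraries, beside 3.36% of all genes tested called higher and 2.13% called lower. Of 6 tested mast cell genes 4 were called higher (Cpa3, Cma1, Tpsb2 and Kit), with a summed level of 61.9 to 72.7 CPM in controls and 194 to 239 CPM in ablated libraries. Tpsb2, the most abundant of them, was at 13.9 to 18.1 CPM in controls and 70.3 to 97.0 CPM in ablated libraries. Of 8 vascular endothelial genes 3 were called higher (Cdh5, Emcn and Flt1), with summed levels of 645 to 867 and 792 to 854 CPM. Kdr, which held most of this sum, was at 464 to 638 CPM in controls and 402 to 431 CPM in ablated libraries (-0.40 ± 0.14 on the log2 scale, edgeR adjusted p = 0.11) and was not called, and the other 7 were fitted higher. Of 8 mural cell genes 2 were called higher (425 to 449 against 815 to 860 CPM), of 7 Schwann cell genes 1 (171 to 184 against 211 to 225 CPM) and of 7 corneal endothelial genes 2 (885 to 1020 against 777 to 1064 CPM). Of 11 leukocyte genes edgeR called 0 (1283 to 1302 against 1086 to 1424 CPM), with 2 at an unadjusted p under 0.05, Itgam higher by the adjusted p alone and 0 called by DESeq2. Of 4 tested melanocyte genes edgeR and DESeq2 called 0 and 0 had an unadjusted p under 0.05 (18.1 to 23.0 against 14.6 to 19.1 CPM). Corneal epithelial genes were low (59.0 to 79.8 against 5.48 to 11.4 CPM), with 4 of 10 called lower (Krt5, Krt14, Krt15 and Krt19) and 1 higher, Krt12, at 0 counts in all controls and 0.895 to 2.09 CPM in ablated libraries. No listed marker was at 0 in all libraries, and Fcer1a, a high-affinity IgE receptor gene of mast cells and basophils that failed the filter on low counts, had 0 counts in all controls and 32, 0 and 46 counts in ablated libraries. The marker genes called in the mast cell, vascular and mural lists were thus higher in ablated libraries, as were Ptger3, Ptgfr, Slco2a1 and Slco2b1. The keratocyte markers called and 4 of the 5 epithelial ones were lower, as were Ptgis and Pla2g5. The part of these markers in the prostanoid results was not tested. The study used both sexes and the sex behind each library was not given. Of 3 tested Y-linked genes Ddx3y was called lower, at 9.99 ± 3.34 against 2.67 ± 0.511 CPM (SD, n = 3), and Eif2s3y and Uty were not called.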

How the data were processed

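RNA of keratocytes sorted from mouse cornea was measured in 6 libraries. Groups, age, doses and interval come from sample titles and protocols. Per the labels a TruSeq kit was used, whereas the paper's methods describe ribosomal RNA depletion and a BGISEQ platform. The values do not show which applies. The submitters' processing notes name Bowtie2 (version 2.2.5), RSEM (version 1.2.12) and build mm9, while annotation release and strand setting were not given in the sources used here. Near-identical or overlapping genes may therefore share reads. The deposited expected counts of RSEM were not normalized, and 18.6% of them were not whole. The authors scaled the deposited TPM values for transcript length and then to one total for each library. Deposited FPKM values (per length and per library size) and the authors' mean columns were not used.

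Expected counts were rounded, filtered with filterByExpr (13888 of 17606 genes kept), scaled by TMM and tested with edgeR's quasi-likelihood test (two-sided, no covariates). Each SE is the size of the log2 fold change over the square root of its F statistic. CPM used TMM-scaled library totals. The edgeR, DESeq2 and limma fits were tested on simulated data, and the permutation tests and the motif search were not. Libraries of a group differed by far more than sampling noise (chi-square per degree of freedom of at least 35.0), so none was a copy.

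The 9 genes, the other lists and the tests were chosen with earlier results of these data known. Named genes were the 9, each pathway gene called and the gene of highest mean TPM in each pathway list. The immediate early gene with the highest counts, marker genes, Ptch1, Gli1 and the 3 genes most like the leading called member were also named. Others are said to be named after their values were seen. Promoter sequences and coordinates are those of RefSeq, GRCm38.p6, and served for description only. Alternatives were DESeq2, RLE and upper quartile scaling, library totals only, no filter on low counts, a mean count of at least 50, limma on log2(TPM + 1) and log2(TPM + 0.1), the replicate block, leaving out each library, and 2 other thresholds. Software was DESeq2 1.42.0, limma 3.58.1 and edgeR 4.0.16 under R 4.3.3.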

Additional observations from a re-analysis of the deposited data

How the results depend on the processing

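Over 30 named genes, 403 of 449 fitted values under the alternatives kept direction and call, and 6 called prostaglandin and pathway genes (Ptgis, Pla2g5, Ptger3, Slco2a1, Slco2b1 and Il1r1) kept both in all, as did Ptch1 and Gli1. Ptgfr and Akr1c14 lost their call with upper quartile scaling, at 1.89 (edgeR adjusted p = 0.053) and 1.64 (edgeR adjusted p = 0.050), which left 1 prostaglandin gene called, as did an adjusted p of at most 0.01. Without one library, 1 to 2 of the prostaglandin genes, 5 to 8 pathway genes and 611 to 756 genes in all were called. Without the fold minimum 1178 genes were called, and limma on log2(TPM + 1) called 10 pathway genes. Akr1b8 was called under 6 alternatives, DESeq2 and both limma fits among them. Signs turned only among genes that were not called, and the cause was not tested.

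Pla2g15 and Lta4h were above 0 with library totals only (0.11 and 0.12), with limma on log2(TPM + 1) (0.15 and 0.16) and with limma on log2(TPM + 0.1) (0.15 and 0.16). With upper quartile scaling Tbxas1 was at -0.045 and Ptges2 at -0.0095. Leaving out each library in turn gave log2 differences from -0.18 to 0.41 for Ptgs2, -0.018 to 0.26 for Ptges, -2.72 to 1.46 for Ptger2, -0.12 to 0.40 for Hpgd and -0.17 to 0.0033 for Pla2g15. The ranges were -0.021 to 0.82 for Hpgds, -0.20 to 0.14 for Tbxas1, -0.36 to 0.61 for Ptges2, -0.56 to 1.10 for Ptger1 and -0.13 to 0.09 for Lta4h. Ptger2 had too few counts for a mean of at least 50. The cyclooxygenase balance stayed between 0.28 and 0.87 and the Ptgds share difference between 0.32 and 2.03 percentage points, the lowest with expected counts in place of TPM, which are not divided by length.

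Over all tested genes, deviations of same-numbered libraries correlated at -0.02, -0.06 and 0.04, and those of other pairs at -0.05 to 0.08. These values cannot show whether same-numbered libraries were prepared together. For Ptgs2 and Ptger2 replicate 3 was the highest in both groups. For Ptgis it was the lowest control and the highest ablated library. With the replicate number as a block 663 genes, 2 prostaglandin genes and 5 pathway genes were called, Akr1c14 being the one lost (edgeR adjusted p = 0.086), and same-numbered differences were all 3 above 0 for the cyclooxygenase balance, with an exact sign-flip p of 0.25, the smallest that 3 pairs allow. With the block the edgeR adjusted p was 0.014 for Ptgfr, 0.064 for Tsc22d3 and 0.059 for Zfp36. Low counts limit Ptgds, Ptger2, Ptger3 in controls and Ptgfr.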
